A study of Mus musculus with 10 samples.

Results

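Cancer-associated fibroblasts (CAFs) were followed here through 10 marker genes, *Acta2*, *Tagln*, *Myl9*, *Pdgfra*, *Pdgfrb*, *Fap*, *Pdpn*, *Thy1*, *Dcn* and *Lum*, which were taken by symbol from count tables of 55401 gene rows. The tables hold bulk RNA sequencing of 10 tumors of B16F10, a melanoma line from C57BL/6 mice. The tumor cells were *Mir25* knockout (KO) in 5 of them and carried a non-targeting control (NTC) guide in the other 5. The microRNA miR-25 is cut from the *Mir25* transcript. All tumors grew under the skin of female C57BL/6J mice aged 9 to 12 weeks and were taken on day 15. Every mouse, KO and NTC alike, received the combination therapy (Comb) of GVAX, an irradiated B16 cell vaccine that secretes GM-CSF, injected on days 1 and 4 at a dose of 1000000 cells, and of αPD-1 antibody, injected on days 6, 9 and 12 at 10 mg/kg. The sample labels give 50000 injected tumor cells and the methods give 500000. *Mir25* was edited with CRISPR-Cas9 in the tumor cells only, so fibroblasts of the host mouse carry the unedited gene in both groups. The labels name neither the guide RNA nor whether a clone or a pool of edited cells was injected. The *Mir25* row is at 0 counts in all 10 tumors, NTC tumors included, so these counts do not check the knockout.

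Most of the markers moved together from tumor to tumor, over a wide range, and 1 did not follow the others. *Dcn*, the highest per length in KO tumors, spanned 119-fold across the 10 tumors and *Lum* spanned 166-fold, and 8 of the 10 genes rose and fell together with Pearson correlations of log2 levels between 0.78 and 1.00 for every pair of them. *Myl9* spanned 4.76-fold and correlated with the other 9 genes between -0.29 and 0.36. It was the only marker whose KO and NTC tumors did not overlap. All 5 KO tumors lay below all 5 NTC tumors, as for 1.47% of the 15821 genes tested. No marker was called different between KO and NTC by edgeR, at an adjusted p under 0.05 and an absolute log2 fold change above 1, where 0.0190% of 15821 genes tested were called. Without NTC replicate 1, 9 of the 10 were higher in KO tumors on the log2 fold change, again with none called, against 0.106% of 16078 genes. NTC replicate 1 was the highest NTC tumor in every marker, and its omission raises these values by itself.

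Fibroblasts of a tumor are usually described by what they do. Myofibroblast-like CAFs (myCAFs) hold contractile proteins such as smooth muscle α-actin and its partners, whereas inflammatory CAFs (iCAFs) are known for secreted chemokines. Genes of the matrix, such as *Tnc* of the study's myCAFs, and of the platelet-derived growth factor (PDGF) receptors are not taken here to part these states. None of these genes is exclusive to fibroblasts: *Acta2*, *Tagln* and *Myl9* are also made by pericytes and vascular smooth muscle, *Pdgfrb* by pericytes, *Pdpn* by lymphatic endothelium and some macrophages, and *Thy1* by mouse T cells. In bulk RNA, fewer fibroblasts and less RNA per fibroblast cannot be told apart. The melanoma cells are part of the same RNA, and their share of each marker was not tested.

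Reads counted on genes ranged from 23243707 to 28682130 in 9 of the tumors. NTC replicate 1 stood apart, with 11896643 reads on genes, 33193 genes with a count against 22192 to 25435 in the others, 42.9% of its reads outside genes against 17.5% to 28.2%, and a TMM factor of 0.628 against 0.969 to 1.11. It was also the highest of the 10 tumors in 9 of the 10 markers, and the highest NTC tumor in every marker. Leaving it out therefore raises these fold changes by itself. Fold changes are given with and without it. Levels are counts per 1000000 reads (CPM) after TMM scaling, and fold changes are log2 values of KO over NTC with their standard errors (SE). All 10 markers passed the filter on low counts in both fits.

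miR-25 acts through its seed, bases 2 to 8, which pairs with messenger RNA, mostly in the 3′ UTR. The mature miRNA is shown because the KO cells were edited to lack it, with the seed in capitals (RefSeq, GRCm38.p6, chr5:138165332-138165353, minus strand).
mmu-miR-25-3p: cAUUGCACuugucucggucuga
The complement of this seed, GTGCAAT, was absent from the longest annotated 3′ UTR of all 10 markers (GENCODE M21). Of 12885 tested genes with a 3′ UTR, 7.77% held at least 1 match. The 3′ UTRs of the markers ran from 241 bases in *Fap* to 3115 bases in *Pdgfra*, beside a median of 1199 bases over the tested genes.

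**Figure D1:**
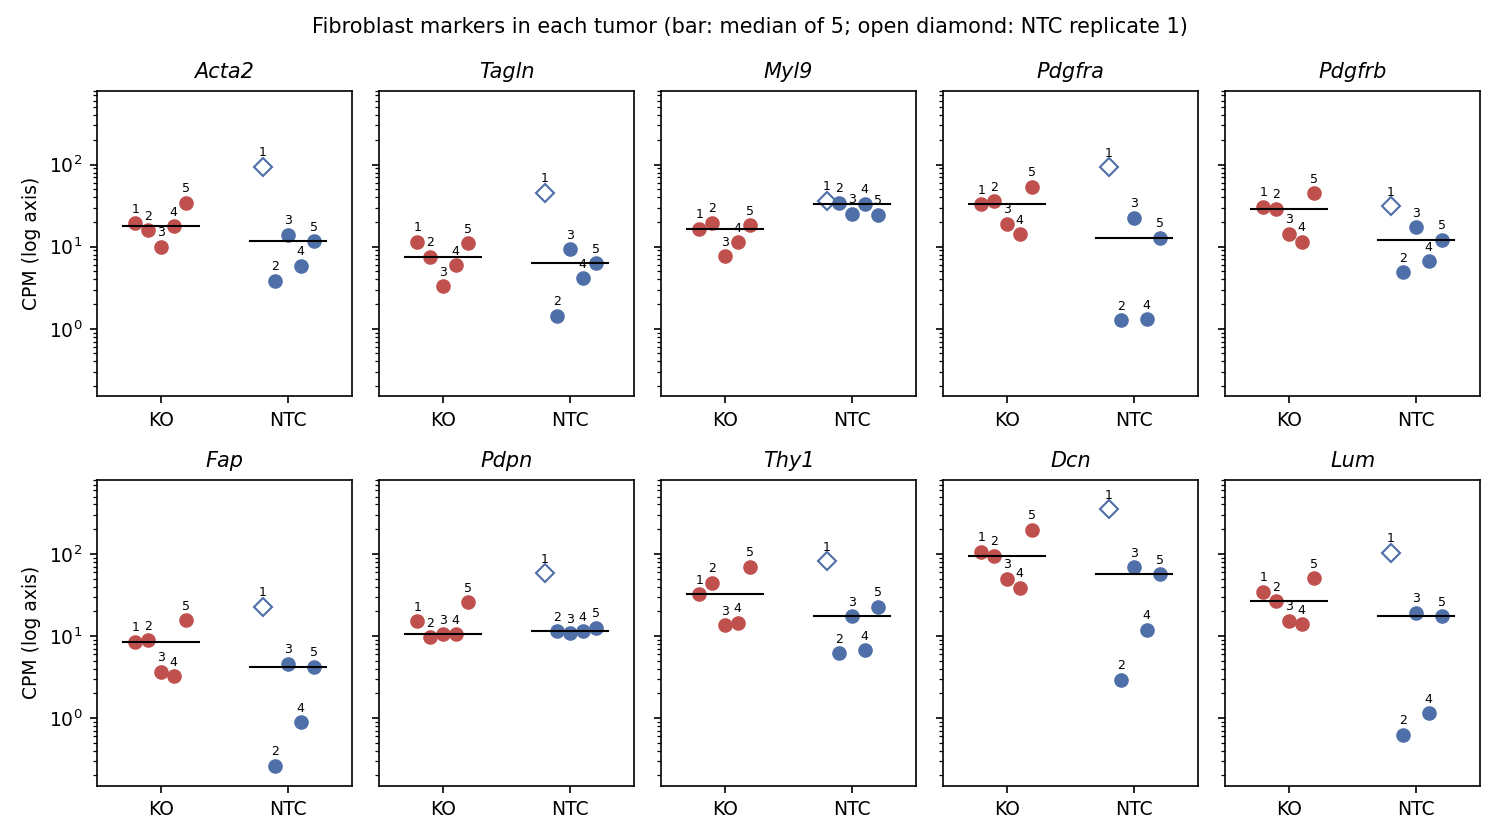
Level of each fibroblast marker in CPM (log axis) in 5 KO and 5 NTC tumors, with the replicate number at each point, the median of 5 as a bar and NTC replicate 1 as an open diamond. NTC replicate 1 is the highest tumor in 9 of the 10 panels, and NTC replicates 2 and 4 are low in most. *Myl9* is the panel in which the groups do not overlap, with KO below NTC as for 1.47% of genes tested.

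The contractile markers were considered first. *Acta2* encodes smooth muscle α-actin, the protein for which myofibroblasts are named (chr19:34241090-34255590, minus strand, GENCODE M21 on GRCm38). *Acta2* stood at 19.5, 16.0, 10.0, 17.7 and 34.3 CPM in KO replicates 1 to 5 and at 94.3, 3.84, 14.0, 5.86 and 11.7 CPM in NTC replicates 1 to 5. The KO tumors lay inside the NTC range, whose top and bottom were both set by NTC tumors. For *Acta2* the log2 fold change was -0.38 (SE 0.79, adjusted p = 0.907), and without NTC replicate 1 it was 1.10 (SE 0.42, adjusted p = 0.207). In those 9 tumors, 4 of the 5 KO tumors were above all 4 NTC tumors, and KO replicate 3 lay below NTC replicates 3 and 5.

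*Tagln* encodes transgelin, an actin-binding protein of smooth muscle (chr9:45929619-45936058, minus strand). *Tagln* stood at 11.6, 7.52, 3.30, 5.95 and 10.99 CPM in KO replicates 1 to 5 and at 45.7, 1.44, 9.37, 4.15 and 6.28 CPM in NTC replicates 1 to 5. Its groups overlapped throughout, with KO replicate 3 below all NTC tumors but NTC replicate 2. For *Tagln* the log2 fold change was -0.74 (SE 0.78, adjusted p = 0.810), and without NTC replicate 1 it was 0.53 (SE 0.50, adjusted p = 0.563). *Tagln* shares bases with *Pcsk7* and *Gm48529* on the other strand, and the strand setting of the counting is not given in the sources used here. Over the 16 edgeR alternatives the adjusted p lay between 0.207 and 0.977 for *Acta2* and between 0.563 and 0.993 for *Tagln*.

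*Myl9* encodes the regulatory myosin light chain of smooth muscle and non-muscle myosin II (chr2:156775420-156781658, plus strand). *Myl9* stood at 16.5, 19.5, 7.65, 11.4 and 18.1 CPM in KO replicates 1 to 5 and at 36.4, 34.3, 25.2, 33.3 and 24.5 CPM in NTC replicates 1 to 5. The highest KO tumor was below the lowest NTC tumor, a pattern found in this direction for 1.47% of the 15821 genes tested and for 1 of the 10 markers. The log2 fold change was -1.07 (SE 0.25, adjusted p = 0.195), and without NTC replicate 1 it was -1.05 (SE 0.25, adjusted p = 0.129). *Myl9* was the only marker with an unadjusted p under 0.05 over 10 tumors, which is a share near that of all genes, 8.85%. Its direction was the same in all 16 edgeR alternatives, with log2 fold changes between -1.19 and -0.91 and adjusted p between 0.129 and 0.438. DESeq2, run on the genes past the edgeR filter, called *Myl9* lower in KO tumors over 10 tumors (log2 fold change -1.08, adjusted p = 0.00706), where it called 0.609% of the genes with an adjusted p, and, run with no filter, without NTC replicate 1 (log2 fold change -1.02, adjusted p = 0.0140), where it called 4.05%. *Myl9* was thus called by DESeq2 and not by edgeR.

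The level of *Myl9* within the marker group needs no scaling between libraries. Of the reads on the 10 markers, *Myl9* took 3.48% to 8.06% in the 5 KO tumors, 3.98% in NTC replicate 1, and 51.0%, 12.1%, 40.0% and 13.5% in NTC replicates 2 to 5. The 95% Wilson intervals, which cover counting error only, ran from 7.24% to 8.95% in the highest KO tumor and from 11.3% to 12.9% in the lowest of NTC replicates 2 to 5. In NTC replicates 2 and 4, 8 of the other 9 markers were low, and *Myl9* and *Pdpn* were not. *Myl9* thus did not follow the markers that moved together. The cells that made the *Myl9* RNA, melanoma cells or others, were not identified. Against the 10 melanoma cell markers (*Tyrp1*, *Dct*, *Pmel* and others), *Myl9* had 0.367 to 1.45 reads per 1000 in KO tumors and 1.19 to 3.01 in NTC tumors. On that scale the groups overlapped, with KO replicates 2 and 5 at 1.22 and 1.45 above NTC replicate 5 at 1.19.

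**Figure D2:**
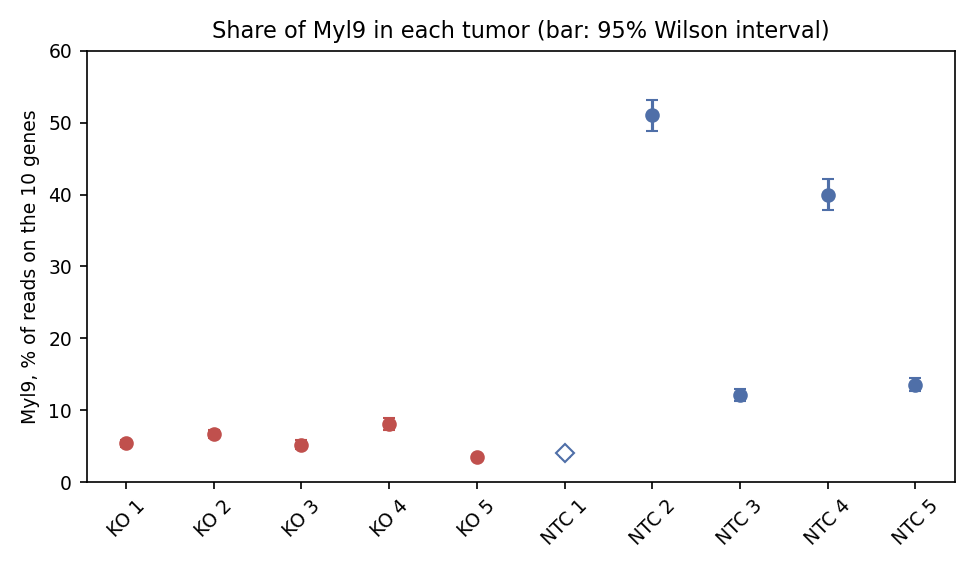
Share of *Myl9* among all reads on the 10 fibroblast markers (y axis, percent) in each tumor, with 95% Wilson intervals as bars. The 5 KO tumors and NTC replicate 1 lie at or below 8.06%, and NTC replicates 2 to 5 lie at or above 12.1%.

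Since *Acta2* and *Myl9*, both textbook targets of serum response factor (SRF), parted in these tumors, their promoters are shown (250 bases before to 50 after the gene start, RefSeq, GRCm38.p6). Capitals mark the CArG box, the element that SRF binds, and boxes with 1 G or C in the A/T core. The *Acta2* promoter spans chr19:34255324-34255623 on the minus strand and the *Myl9* promoter chr2:156775214-156775513 on the plus strand.
Acta2: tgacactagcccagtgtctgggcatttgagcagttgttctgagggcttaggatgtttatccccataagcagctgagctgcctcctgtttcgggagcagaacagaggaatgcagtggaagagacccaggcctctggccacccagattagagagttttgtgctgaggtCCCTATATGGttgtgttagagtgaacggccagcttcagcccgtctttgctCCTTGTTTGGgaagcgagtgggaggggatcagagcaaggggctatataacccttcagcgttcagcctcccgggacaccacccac
Myl9: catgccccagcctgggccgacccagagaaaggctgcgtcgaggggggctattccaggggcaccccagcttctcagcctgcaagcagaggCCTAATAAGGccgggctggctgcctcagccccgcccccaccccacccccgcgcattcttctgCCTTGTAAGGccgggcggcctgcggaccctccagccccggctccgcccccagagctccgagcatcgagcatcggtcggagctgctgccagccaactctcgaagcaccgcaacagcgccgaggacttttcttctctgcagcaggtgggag
*Myl9* holds 1 full CArG box, 161 bases before its start, and 1 box with a G or C in the core, whereas *Acta2* holds 2 boxes of the second kind, 84 and 34 bases before its start. On both strands, 1.63% of 32851 promoters of this length hold a full CArG box and 8.50% hold the second kind. GGGCGG, the GC box, occurs 3 times in the *Myl9* promoter and not in that of *Acta2*, and in 35.7% of all promoters. The *Myl9* promoter is 68.3% G and C and that of *Acta2* is 54.7%. The table also holds the promoters of *Pdgfra* and *Pdpn*, and neither contains a CArG box of either kind, while GGGCGG occurs 2 times in that of *Pdpn*. A match describes the letters and is not a measurement of binding.

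Other contractile genes lay on both sides of 0. Of 19 genes listed, 17 were tested and none was called in either fit. Over 10 tumors 4 had an unadjusted p under 0.05, all lower in KO tumors, where 8.85% of all genes had one in either direction. *Tpm1*, a tropomyosin, stood at 413 to 459 CPM in KO tumors and 548 to 670.5 CPM in NTC tumors, with a log2 fold change of -0.50 (adjusted p = 0.0929). Without NTC replicate 1 it was -0.57 (adjusted p = 0.0392), short of the fold needed for a call. *Cnn2*, *Vcl* and *Csrp1*, which encode a calponin, vinculin and an actin-bundling LIM protein, had log2 fold changes of -0.34, -0.41 and -0.26 (adjusted p = 0.470, 0.471 and 0.505), and of -0.29, -0.49 and -0.35 without NTC replicate 1 (adjusted p = 0.219, 0.183 and 0.167). Without NTC replicate 1 the same 4 had an unadjusted p under 0.05 and were lower, as 8.10% of all genes did, and 6 others, *Tpm2*, *Myh10*, *Cald1*, *Des*, *Synpo2* and *Tgfb1i1*, had one and were higher, as 12.0% of all genes did. *Tpm2* and *Des*, which skeletal muscle also makes, were highest of these 9 tumors in KO replicate 4, at 16.5 and 9.70 CPM, the tumor with the most skeletal muscle marker RNA (470 CPM in sum), and the part of muscle was not tested. The median log2 fold change of the 17 was -0.03 over 10 tumors, beside 0.01 over all genes. *Flna*, which with *Csrp1* had the highest mean CPM of the list, was at 1206 to 1566 CPM in KO tumors and 1250 to 1499 CPM in NTC tumors (log2 fold change -0.03, adjusted p = 0.954, and -0.10, adjusted p = 0.577, without NTC replicate 1). *Srf* itself had a log2 fold change of -0.41 (adjusted p = 0.4929) and -0.51 without NTC replicate 1 (adjusted p = 0.185), and its cofactor *Mrtfb* 0.03 and 0.05. *Myocd*, the smooth muscle cofactor of SRF, was at 3.10 CPM in NTC replicate 1, at most 0.0820 CPM in the other tumors and at 0 counts in some, and was not tested.

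The PDGF receptors come next. *Pdgfra* encodes the α receptor, found on most tissue fibroblasts (chr5:75152292-75198215, plus strand). It stood at 32.8, 35.6, 19.1, 14.2 and 54.0 CPM in KO replicates 1 to 5 and at 93.4, 1.28, 22.6, 1.30 and 12.9 CPM in NTC replicates 1 to 5. NTC replicates 2 and 4 were more than 10-fold below every KO tumor, and NTC replicate 1 was above every one. The log2 fold change of *Pdgfra* was 0.27 (SE 0.98, adjusted p = 0.950), and without NTC replicate 1 it was 1.67 (SE 0.80, adjusted p = 0.273). Leaving out KO replicate 5 gave -0.0090, NTC replicate 2 gave -0.037 and NTC replicate 4 gave -0.035, so its sign over 10 tumors rests on single tumors. *Pdgfra* overlaps *Gm42802* and *Gm42803* on the other strand and *Mir7025* on its own.

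*Pdgfrb* encodes the β receptor, shared by fibroblasts and pericytes (chr18:61045150-61085061, plus strand). *Pdgfrb* stood at 30.6, 29.1, 14.4, 11.5 and 45.1 CPM in KO replicates 1 to 5 and at 31.0, 4.89, 17.3, 6.63 and 12.2 CPM in NTC replicates 1 to 5. Here NTC replicate 1 was close to KO replicates 1 and 2, and KO replicate 5 was the highest, the only marker for which NTC replicate 1 was not. Its log2 fold change of 0.88 (SE 0.52, adjusted p = 0.657) was the highest of the 10 markers, and it became 1.31 (SE 0.46, adjusted p = 0.191) without NTC replicate 1. DESeq2 without that tumor and with no filter called it higher in KO tumors (log2 fold change 1.34, adjusted p = 0.0483), and over 10 tumors on the genes past the edgeR filter did not (0.87, adjusted p = 0.582), so the runs differ in both choices. Over the edgeR alternatives the adjusted p lay between 0.191 and 0.965 for *Pdgfrb* and between 0.273 and 1.00 for *Pdgfra*.

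The receptors were not in a fixed ratio. For every 100 reads on *Pdgfra* there were 75.5 to 93.4 reads on *Pdgfrb* in the 5 KO tumors and 76.6 and 94.6 in NTC replicates 3 and 5. In NTC replicates 2 and 4 there were 382 and 509, resting on 39 and 32 *Pdgfra* reads, and in NTC replicate 1 there were 33.2. Of the 4 PDGF ligand genes, all tested and none called, *Pdgfa* and *Pdgfd* had the highest mean CPM. *Pdgfa* had 10.0 to 15.8 CPM in KO tumors and 12.2 to 16.3 CPM in NTC tumors (log2 fold change -0.17, adjusted p = 0.772, and -0.14, adjusted p = 0.618, without NTC replicate 1). *Pdgfd* had a log2 fold change of -0.11 (adjusted p = 0.940), and of 0.13 without NTC replicate 1 (adjusted p = 0.822). *Pdgfc* was the 1 ligand with an unadjusted p under 0.05 in either fit and was named after its values were seen. Its log2 fold change was 1.21 over 10 tumors (adjusted p = 0.635) and 1.69 without NTC replicate 1 (adjusted p = 0.198).

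Of the surface proteins, *Fap* encodes fibroblast activation protein, a serine protease of reactive fibroblasts (chr2:62500943-62574075, minus strand). *Fap* stood at 8.49, 8.92, 3.67, 3.21 and 15.6 CPM in KO replicates 1 to 5 and at 22.6, 0.263, 4.61, 0.895 and 4.23 CPM in NTC replicates 1 to 5. It was the lowest of the 10 per length, with 8 reads in NTC replicate 2. NTC replicates 2 and 4 were again below all KO tumors and NTC replicate 1 above all. *Fap* had a log2 fold change of 0.34 (SE 0.93, adjusted p = 0.935), 1.63 without NTC replicate 1 (SE 0.76, adjusted p = 0.260) and -0.046 without KO replicate 5. In its protein family, *Dpp8* and *Dpp9*, present in most cells, were at 158 to 170 and 46.4 to 65.9 CPM in KO tumors and had log2 fold changes of -0.08 and 0.10 (adjusted p = 0.734 and 0.805), and of -0.13 and 0.03 without NTC replicate 1 (adjusted p = 0.294 and 0.915). None of the 3 family members tested was called.

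*Thy1* encodes CD90, a surface glycoprotein of fibroblasts that mouse T cells also carry (chr9:44043384-44048579, plus strand). *Thy1* stood at 32.4, 44.6, 13.6, 14.5 and 69.7 CPM in KO replicates 1 to 5 and at 81.0, 6.20, 17.4, 6.67 and 22.7 CPM in NTC replicates 1 to 5. KO replicates 1, 2 and 5 were above all NTC tumors but replicate 1. Its log2 fold change was 0.41 (SE 0.73, adjusted p = 0.886), and 1.36 without NTC replicate 1 (SE 0.56, adjusted p = 0.223). The 10 T cell markers, all detected in every tumor, summed to 42.5 to 216 CPM in KO tumors, 111 CPM in NTC replicate 1 and 26.3 to 96.4 CPM in NTC replicates 2 to 5. The part of T cells in the *Thy1* values was not tested.

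*Pdpn* encodes podoplanin, a mucin-type protein of fibroblasts and lymphatic endothelium (chr4:143267431-143299564, minus strand). *Pdpn* stood at 15.01, 9.65, 10.5, 10.6 and 26.0 CPM in KO replicates 1 to 5 and at 58.2, 11.5, 10.9, 11.5 and 12.6 CPM in NTC replicates 1 to 5. Apart from NTC replicate 1 and KO replicate 5 the tumors lay within a narrow band, and NTC replicates 2 and 4, low in 8 of the markers, were not low in *Pdpn*. *Pdpn* had a log2 fold change of -0.53 (SE 0.53, adjusted p = 0.794), and of 0.27 without NTC replicate 1 (SE 0.28, adjusted p = 0.608). Of 6 lymphatic endothelial markers, *Ccl21a* was at 0 in all tumors and *Mmrn1* in some. *Lyve1*, a hyaluronan receptor, was at 46.9 CPM in NTC replicate 1 and at 0.328 to 14.5 CPM elsewhere, and *Prox1*, the lymphatic master regulator, at 2.51 to 6.16 CPM. The list summed to 8.77 to 13.4 CPM in KO tumors, 59.4 CPM in NTC replicate 1 and 6.60 to 26.6 CPM in NTC replicates 2 to 5. NTC replicate 1 was thus the highest both in *Pdpn* and in this sum, most of which was *Lyve1* there, and *Reln* and *Mmrn1* were also highest in that tumor, at 3.50 and 1.75 CPM, whereas *Prox1* at 3.50 CPM and *Flt4* at 3.77 CPM were not. The part of lymphatic cells in the *Pdpn* values was not tested. *Cd44*, *Ezr* and *Msn*, partners of podoplanin, had log2 fold changes of 0.07, 0.02 and 0.12 over 10 tumors and 0.09, -0.02 and 0.26 without NTC replicate 1, none called. Over the edgeR alternatives the adjusted p lay between 0.260 and 0.999 for *Fap*, 0.223 and 1.00 for *Thy1*, and 0.602 and 0.962 for *Pdpn*.

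*Dcn* and *Lum* encode decorin and lumican, small leucine-rich proteoglycans that bind collagen fibrils, and are neighbours on chromosome 10 (chr10:97479609-97518143 and chr10:97565128-97572703, plus strand). *Dcn* stood at 107, 95.4, 49.99, 38.6 and 197 CPM in KO replicates 1 to 5 and at 349, 2.92, 68.4, 11.9 and 56.8 CPM in NTC replicates 1 to 5. *Lum* stood at 34.7, 26.7, 15.3, 13.8 and 50.8 CPM in KO replicates 1 to 5 and at 103, 0.624, 19.2, 1.14 and 17.4 CPM in NTC replicates 1 to 5. Both put the 10 tumors in the same order, with NTC replicate 1 at the top, then KO replicate 5, and NTC replicates 4 and 2 at the bottom. The log2 fold change of *Dcn* was 0.01 (SE 0.98, adjusted p = 0.997), and 1.44 without NTC replicate 1 (SE 0.79, adjusted p = 0.330). That of *Lum* was 0.02 (SE 1.05, adjusted p = 0.995), and 1.52 without NTC replicate 1 (SE 0.88, adjusted p = 0.351). For each of the pair, leaving out KO replicate 1 or 5 or any of NTC replicates 2 to 5 turned the small positive value negative, down to -0.41 for *Dcn* and -0.29 for *Lum*. Over the edgeR alternatives the adjusted p lay between 0.330 and 1.00 for *Dcn* and between 0.351 and 0.998 for *Lum*.

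**Figure D3:**
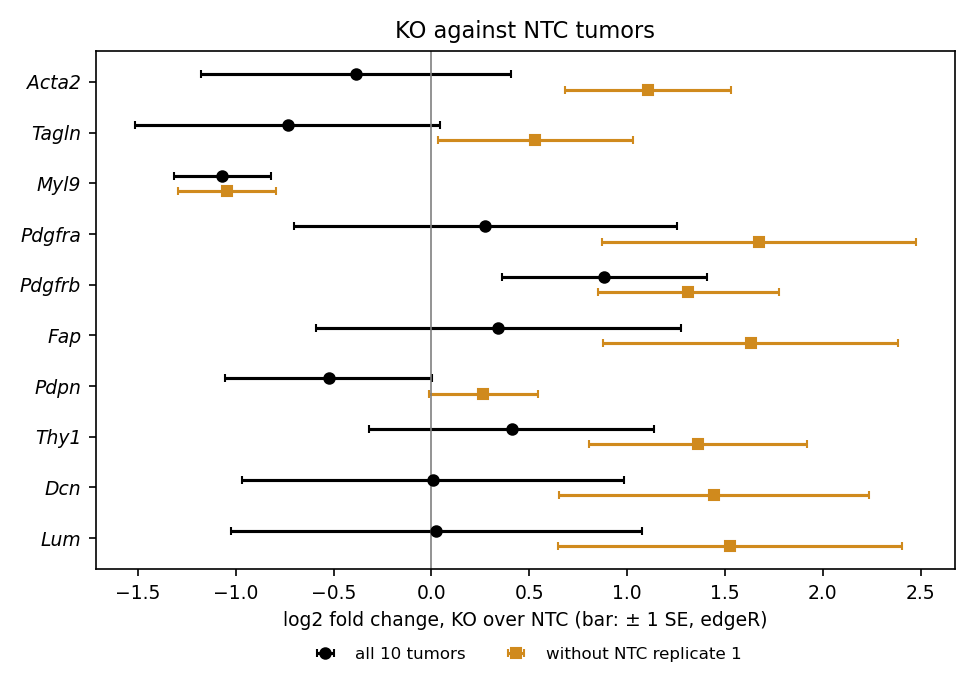
Log2 fold change of KO over NTC tumors for each fibroblast marker (x axis, with SE as bars) by edgeR, over all 10 tumors (circles) and without NTC replicate 1 (squares). *Myl9* lies near -1.07 and -1.05 in the 2 fits. The other 9 markers lie further to the right without NTC replicate 1, the highest NTC tumor in each.

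Read as a group, 6 of the 10 markers had a positive log2 fold change over 10 tumors, with a median of 0.02 beside 0.01 over all genes tested. Without NTC replicate 1, the highest NTC tumor in every marker, 9 were positive, with a median of 1.34 beside -0.02. Of these, *Acta2*, *Pdgfrb* and *Thy1* had an unadjusted p under 0.05 and were higher, where 12.0% of all genes were, and *Myl9* had one and was lower, where 8.10% of all genes were. No marker had all KO tumors above NTC replicates 2 to 5, a pattern of 2.71% of all genes. Since 8 of the markers moved together, they are not independent counts of the same difference.

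Per kilobase of exon, the order of the markers differed between the groups. In KO tumors it ran from *Dcn* at 16.7 ± 10.8 CPM per kb (SD, n = 5) through *Myl9* at 12.6 ± 4.28, *Thy1* at 11.7 ± 7.79, *Lum* at 11.5 ± 6.21, *Acta2* at 8.88 ± 4.10, *Pdpn* at 7.89 ± 3.76, *Pdgfrb* at 4.78 ± 2.48, *Tagln* at 3.96 ± 1.74 and *Pdgfra* at 3.10 ± 1.56 to *Fap* at 1.41 ± 0.883. Neighbours in this order differed by less than the larger of their SDs, except *Pdgfra* and *Fap*. In NTC replicates 2 to 5 *Myl9* led at 25.2 ± 4.48 CPM per kb (SD, n = 4), clear of *Pdpn* at 6.39 ± 0.383 and *Dcn* at 6.00 ± 5.55, and no later pair of neighbours differed by more than its SD. With NTC replicate 1 included, *Dcn* stood at 16.8 ± 24.5 and *Myl9* at 26.5 ± 4.73 CPM per kb (SD, n = 5).

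Whether contractile and matrix markers rise together in the same tumor was examined over the 10 tumors in 7 pairs, with two-sided permutation tests adjusted over the 7. *Acta2* followed *Dcn*, with r = 0.92 (permutation p = 0.00048, adjusted 0.000672) and rho = 0.88 (permutation p = 0.00164, adjusted 0.00230). Without NTC replicates 1 and 2, the pair of tumors farthest from the median of *Acta2*, r was 0.89, and without NTC replicate 1 alone it was 0.94. *Acta2* followed *Tagln* with r = 0.95 (permutation p = 7e-05, adjusted 0.000122) and rho = 0.89 (permutation p = 0.00115, adjusted 0.00201), and r = 0.78 without those 2 tumors. *Acta2* did not follow *Myl9*: r was 0.00 within rounding (-0.0041, permutation p = 0.991, adjusted 0.991), rho was -0.14 (permutation p = 0.707, adjusted 0.783), and r was -0.25 without NTC replicates 1 and 2. Without NTC replicate 1 alone r was -0.46 (permutation p = 0.207, adjusted 0.242) and rho was -0.57 (permutation p = 0.120, adjusted 0.140).

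*Tagln* and *Myl9* gave r = 0.18 (permutation p = 0.619, adjusted 0.722) and rho = 0.10 (permutation p = 0.783, adjusted 0.783), r = 0.29 without NTC replicates 1 and 2, and r = -0.18 without NTC replicate 1. *Dcn* and *Lum* gave r = 0.98 and rho = 1.00, each with a permutation p of 1e-05, the smallest that 100000 resamples can give (adjusted 7e-05), and r = 0.96 without NTC replicates 1 and 2. *Pdgfra* followed *Pdgfrb* (r = 0.93, permutation p = 7e-05, adjusted 0.000122; rho = 0.96, permutation p = 4e-05, adjusted 0.00014), with r = 0.88 without NTC replicates 2 and 4. *Pdgfra* followed *Dcn* (r = 0.96, permutation p = 2e-05, adjusted 7e-05; rho = 0.95, permutation p = 6e-05, adjusted 0.00014), with r = 0.97 without the same tumors. The values of a tumor share its library and its scaling factor, and no share of such r over all gene pairs is given. The relation of *Acta2* with *Dcn* thus held without the extreme tumors, and no relation of *Myl9* with *Acta2* or *Tagln* was found.

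**Figure D4:**
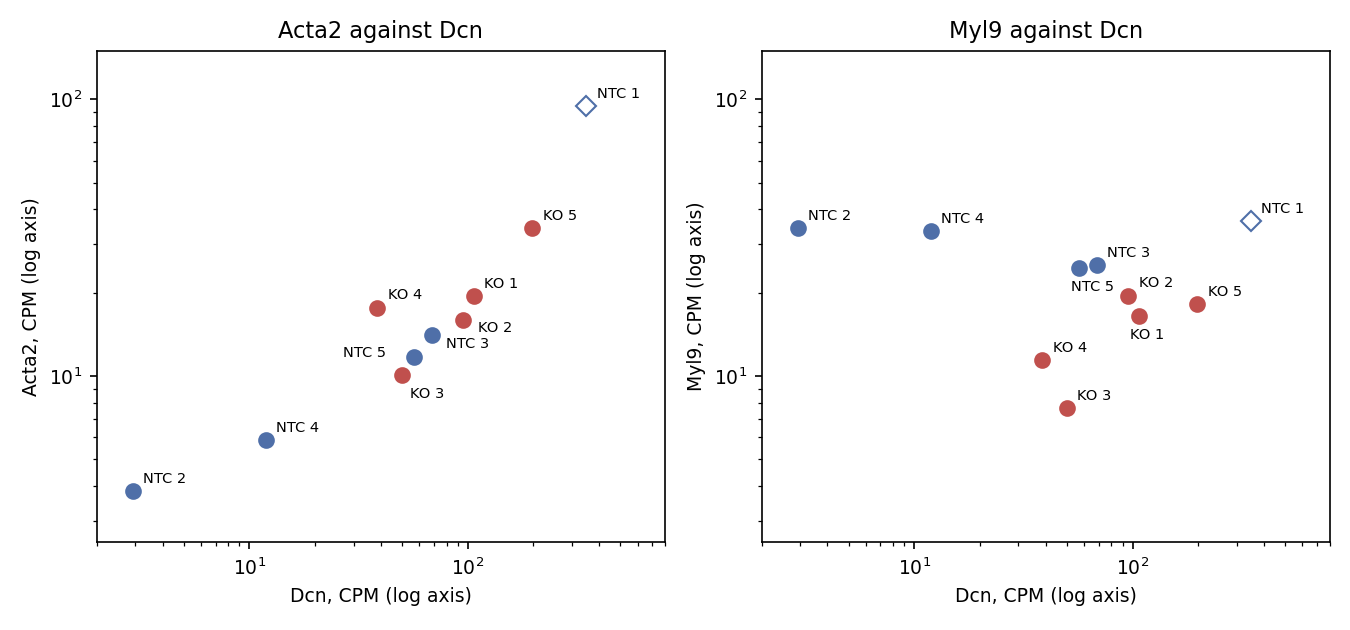
*Acta2* (left) and *Myl9* (right) against *Dcn* in CPM, both axes logarithmic, 1 point per tumor with KO in red, NTC in blue and NTC replicate 1 as an open diamond. *Acta2* rises with *Dcn* from NTC replicate 2 to NTC replicate 1 (r = 0.92), and *Myl9* does not (r = -0.19).

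The remaining pairs are described with no test. Among *Acta2*, *Tagln*, *Pdgfra*, *Pdgfrb*, *Fap*, *Thy1*, *Dcn* and *Lum*, all 28 pairs had r between 0.78 and 1.00, and between 0.80 and 1.00 without NTC replicate 1. *Pdpn* had r between 0.53 and 0.82 with these 8, highest with *Acta2*, and between 0.36 and 0.58 without NTC replicate 1. *Myl9* had r between -0.29 and 0.36 with the other 9, and between -0.57 and 0.04 without that tumor. *Fap* kept the steadiest ratio: for every 100 reads on *Dcn* there were 6.49 to 9.35 on *Fap* in all 10 tumors. *Lum* had 25.7 to 35.9 reads per 100 on *Dcn* in 8 tumors, with 21.3 in NTC replicate 2 and 9.56 in NTC replicate 4, which rest on 19 and 28 *Lum* reads. *Acta2* had 16.8 to 27.0 in 7 tumors, with 45.8 in KO replicate 4, 49.1 in NTC replicate 4 and 131 in NTC replicate 2. In the tumors with the least *Dcn*, *Acta2* was therefore high relative to it.

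**Figure D5:**
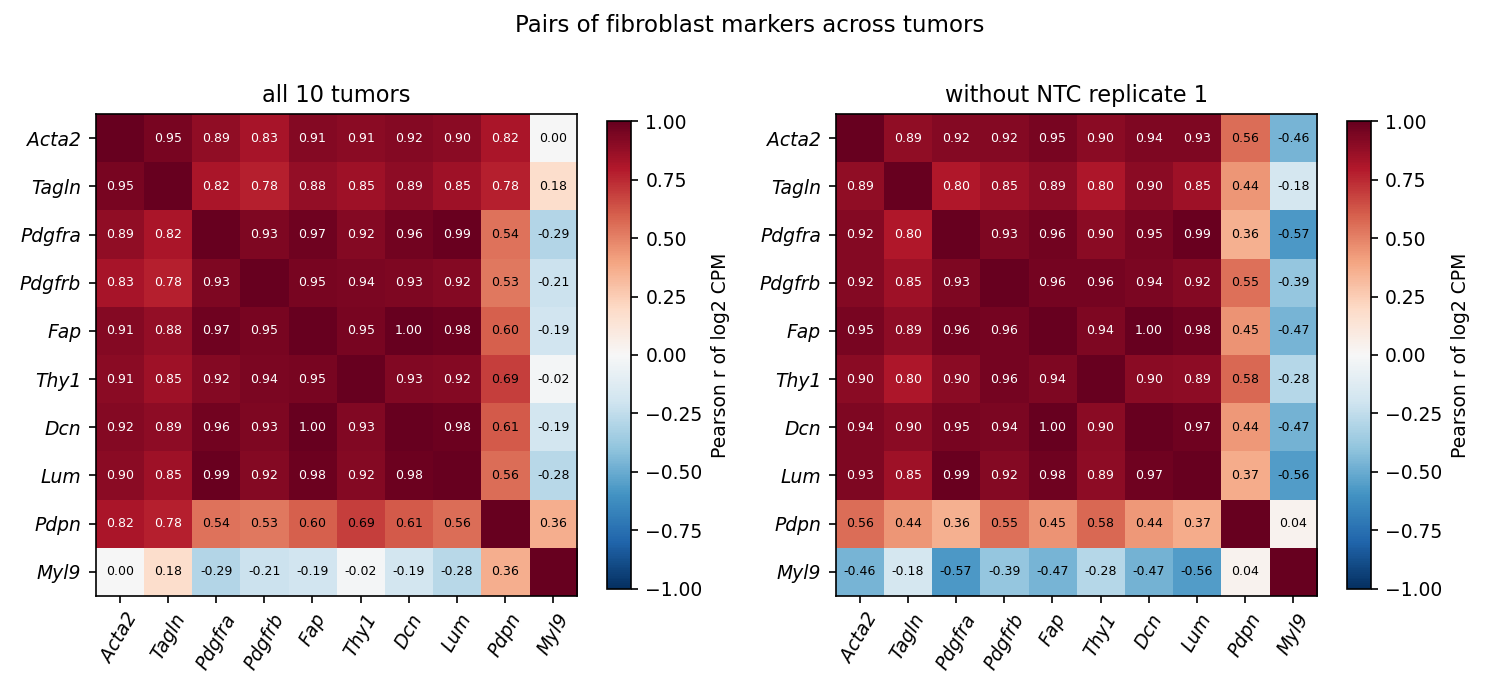
Pearson r of log2 CPM for every pair of the 10 fibroblast markers, over all 10 tumors (left) and without NTC replicate 1 (right), with red for positive and blue for negative values. The block of 8 markers is red in both panels (0.78 to 1.00 on the left), *Pdpn* is paler, and the *Myl9* row runs from -0.29 to 0.36 on the left and from -0.57 to 0.04 on the right.

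The genes most like each marker were sought among 13911 others with a mean of at least 1 CPM, by r over the 10 tumors. *Dcn* was most like *Fap* (r = 1.00), the collagen gene *Col3a1* (1.00) and *Heg1* (0.99), and *Fap* most like *Dcn*, *Heg1* and the fibrillin gene *Fbn1* (0.99). *Lum* was most like *Mfap5* (1.00), *Ogn* and *Ndn* (both 0.99), of which *Ogn* encodes another small leucine-rich proteoglycan. *Pdgfrb* was most like the collagen VI genes *Col6a3* and *Col6a1* (both 0.99) and *Tnfrsf13b* (0.99), and *Pdgfra* most like *Hlx*, *Fibin* and *Ptgfrn* (all 0.99). Among these neighbours, *Col3a1*, *Dcn*, *Fbn1*, *Mfap5*, *Ogn*, *Col6a3* and *Col6a1* are genes of the extracellular matrix. *Heg1*, *Ndn*, *Tnfrsf13b*, *Hlx*, *Fibin* and *Ptgfrn* were as close, at 0.99, and were not grouped. The sum of pan-leukocyte markers was also lowest in NTC replicates 2 and 4, at 581 and 566 CPM. The shared movement was therefore not particular to matrix genes.

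*Acta2* was most like *Sorcs2* (0.99), *Cgnl1* and *Dab2* (both 0.98), *Tagln* most like the proteoglycan gene *Prelp*, *Ccbe1* and *6030400A10Rik* (all 0.98), and *Thy1* most like *Prdm1*, *Enpp1* and *Kcnk13* (all 0.99). *Pdpn* was most like *Gm12174* (0.99), *Rpl31-ps8* (0.96) and *Jag1* (0.96). *Myl9* was most like *Gm24339* (0.93), *Ppp1cb* (0.92) and *Mgat3* (0.92). *Ppp1cb* encodes the catalytic subunit of myosin phosphatase, the enzyme that removes phosphate from the myosin light chain, and its log2 fold change was -0.09, and -0.12 without NTC replicate 1. The closely related light chain gene *Myl12a* had r = 0.38 with *Myl9*, 0.75 without NTC replicate 1, and a log2 fold change of -0.03 (adjusted p = 0.955), and of -0.11 without that tumor (adjusted p = 0.486). The related *Myl12b* had r = -0.33 and -0.49 and log2 fold changes of 0.34 and 0.42 (adjusted p = 0.730 and 0.372), and the essential light chain gene *Myl6* had r = 0.17 and -0.03 and log2 fold changes of 0.11 and 0.19 (adjusted p = 0.872 and 0.446).

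Other matrix genes of fibroblasts were read beside *Dcn*. Of 20 listed genes all were tested, and none was called in either fit. Over 10 tumors 16 had a positive log2 fold change, with a median of 0.30 beside 0.01 over all genes, and without NTC replicate 1 17 had, with a median of 1.54 beside -0.02. *Col3a1* was at 501 to 2946 CPM in KO tumors, 3827 CPM in NTC replicate 1 and 24.6 to 989 CPM in NTC replicates 2 to 5, with log2 fold changes of 0.27 (adjusted p = 0.952) and 1.57 without NTC replicate 1 (adjusted p = 0.347). *Fn1*, fibronectin, had 0.15 and 0.59 (adjusted p = 0.938 and 0.347). The 3 genes with a negative value without NTC replicate 1 were *Sparc*, *Fbln1* and *Pcolce*, at -0.03, -0.28 and -0.07. Of 10 other small leucine-rich proteoglycans 7 were tested, 5 with a positive value over 10 tumors and 7 without NTC replicate 1, and none was called. *Bgn*, biglycan, had log2 fold changes of 0.54 (adjusted p = 0.868) and 1.64 (adjusted p = 0.215), and *Ogn* -0.40 (adjusted p = 0.932) and 1.45 (adjusted p = 0.320).

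The study's own marker lists for CAF states, taken from its single-cell data on other tumors, were read in the same fits, and some genes stand in more than 1 list. No gene of these lists was called in either fit. The lists were made for single cells, whereas bulk RNA mixes all cells of a tumor, and the part of other cells was not tested. The general CAF list (20 tested) had 15 positive log2 fold changes over 10 tumors and 20 without NTC replicate 1, with medians of 0.38 and 1.63. *Col1a2* and *Col1a1*, its highest genes, had 0.89 and 1.13 over 10 tumors (adjusted p = 0.803 and 0.736), and 1.96 and 2.13 without NTC replicate 1 (adjusted p = 0.230 and 0.201). The *Cxcl14* iCAF list (19 tested) had 14 and 18 positive values with medians of 0.44 and 1.64, led in level by *Apoe* and *Lpl* (log2 fold changes 1.04 and 1.49, adjusted p = 0.631 and 0.594, and without NTC replicate 1 1.46 and 2.28, adjusted p = 0.187 and 0.142). *Slit2* of that list, a secreted guidance protein named after its values were seen, ran the other way, at 11.3 to 16.6 CPM in KO tumors and 21.4 to 37.4 CPM in NTC tumors, with log2 fold changes of -1.06 (adjusted p = 0.137) and -1.16 without NTC replicate 1 (adjusted p = 0.0534). The *Cd55* iCAF list (18 tested) had 6 and 16 with medians of -0.41 and 0.96, led by *Tnfrsf11b* and *Rras2* (log2 fold changes -0.57 and 0.04, adjusted p = 0.719 and 0.965, and without NTC replicate 1 -0.58 and 0.27, adjusted p = 0.461 and 0.344). The myCAF list without *Acta2* and *Tagln* (18 tested) had 12 and 14 with medians of 0.22 and 0.98, led by *Fabp5* and *Soat1* (log2 fold changes 0.60 and 0.19, adjusted p = 0.736 and 0.780, and without NTC replicate 1 1.11 and 0.25, adjusted p = 0.177 and 0.402). All 4 medians were higher without NTC replicate 1. It was the NTC tumor with the highest sum of each list, and its omission raises the medians by itself. *Apoe* and *Lpl* were highest in KO replicates 2 and 5, which also had the highest macrophage marker sums among KO tumors.

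Markers of other cells that could hold these transcripts moved in part with the fibroblast markers, and their part in the values was not tested. The 20 pericyte markers, 19 of them detected in every tumor, summed to 401 to 478 CPM in KO tumors, 611 CPM in NTC replicate 1 and 368 to 477 CPM in NTC replicates 2 to 5. Of the 18 tested, 11 had a positive log2 fold change, with a median of 0.09, and without NTC replicate 1 15 of 19 had, with a median of 0.40, none called. The genes with the highest mean level, *Tinagl1* and *Mcam*, were on the other side, with log2 fold changes of -0.10 and -0.57 (adjusted p = 0.919 and 0.137), and of -0.27 and -0.66 without NTC replicate 1 (adjusted p = 0.465 and 0.0547). The 20 endothelial markers, all detected, summed to 860 to 1070, 1273 and 902 to 1161 CPM. Of these, 13 had a positive log2 fold change, with a median of 0.18, and 15 without NTC replicate 1, with a median of 0.36, none called. *Sparcl1* and *Apold1*, 2 of the abundant genes, had -0.48 and -0.44 (adjusted p = 0.140 and 0.689), and -0.53 and -0.61 without NTC replicate 1 (adjusted p = 0.0900 and 0.249). Abundant genes carry both sums, and single members varied more: *Rgs5*, a pericyte gene, was at 28.9 to 66.4 CPM in KO tumors, 114 CPM in NTC replicate 1 and 16.7 to 51.8 CPM in NTC replicates 2 to 5. The 10 fibroblast markers summed to 141 to 522 CPM in KO tumors, 915 CPM in NTC replicate 1 and 67.3 to 209 CPM in NTC replicates 2 to 5.

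Leukocyte marker sums had a wider range than those of pericyte and endothelial markers. The 10 pan-leukocyte markers, all detected, summed to 891 to 3506 CPM in KO tumors, 2762 CPM in NTC replicate 1 and 566 to 1317.5 CPM in NTC replicates 2 to 5, and the 10 macrophage markers, all detected, to 1490 to 7903, 6604 and 457 to 1985 CPM. *Ptprc* and *Lcp1* had log2 fold changes of 0.88 and 0.56 (adjusted p = 0.734 and 0.792), which became 1.496 and 1.16 without NTC replicate 1 (adjusted p = 0.223 and 0.209). *Lyz2* and *C1qa*, of macrophages, had 0.97 and 0.79 (adjusted p = 0.773 and 0.748), which became 2.25 and 1.37 (adjusted p = 0.176 and 0.232). *Cd3g* and *Cd8a* of the T cell list had 1.31 and 1.03 (adjusted p = 0.516 and 0.645), which became 1.496 and 1.22 (adjusted p = 0.205 and 0.293). All genes of the pan-leukocyte, macrophage and T cell lists had positive log2 fold changes in both fits, with medians of 0.79, 0.97 and 1.11 over 10 tumors, beside 0.02 for the fibroblast markers, and of 1.38, 1.68 and 1.49 without NTC replicate 1, beside 1.34. Among KO tumors, replicates 1, 2 and 5 had the highest sums of both leukocyte and fibroblast markers.

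Signs of neighbouring tissue differed by tumor. The 20 skeletal muscle markers, of which 7 were detected in every tumor, summed to 44.6 to 470 CPM in KO tumors, the highest in KO replicate 4, 63.3 CPM in NTC replicate 1 and 36.4 to 66.8 CPM in NTC replicates 2 to 5, and *Ttn* and *Eno3* had log2 fold changes of 1.87 and 0.16 (adjusted p = 0.415 and 0.879), and of 2.00 and 0.03 without NTC replicate 1 (adjusted p = 0.197 and 0.963). All 6 muscle genes tested over 10 tumors and all 10 tested without NTC replicate 1 had positive values, with medians of 2.20 and 2.81, none called. The 10 adipocyte markers summed to 44.4 to 206, 252 and 13.3 to 89.7 CPM, with *Adipoq*, *Plin1*, *Cidec*, *Lep* and *Retn* at 0 in some tumors, and *Fabp4* and *Cfd* had 0.63 and 0.26 (adjusted p = 0.825 and 0.958), and 1.53 and 1.15 without NTC replicate 1 (adjusted p = 0.204 and 0.580). Of 10 keratinocyte markers only *Dsp* was detected in every tumor, *Krt14* was at 0 in some, and the list summed to at most 38.1 CPM. The melanoma cell markers, which define the labelled tissue, were all detected in every tumor and summed to 12555 to 20863 CPM in KO tumors, 12093 CPM in NTC replicate 1 and 20556 to 22926 CPM in NTC replicates 2 to 5. *Tyrp1* and *Dct* had log2 fold changes of -0.20 and -0.25 (adjusted p = 0.773 and 0.758), and of -0.35 and -0.41 without NTC replicate 1 (adjusted p = 0.262 and 0.238). The tumor with the highest fibroblast marker sum, NTC replicate 1, was thus the lowest in melanoma markers.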

How the data were processed

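Bulk RNA of 5 KO and 5 NTC tumors was sequenced, and the groups and replicate numbers come from the sample titles. Per the labels, reads were checked with FastQC, trimmed with Trimmomatic, aligned to mm10 with HISAT2 and counted with HTSeq. The authors deposited raw counts per gene, without normalization. The strand setting and annotation are not given in the sources used here. The 5 summary rows, 35.3% to 64.1% of a file, were left out. Of the symbols, 107 stand on more than 1 row, and these rows were kept apart. The labels do not say that each tumor came from its own mouse, and p-values measure the spread between tumors.

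KO and NTC were compared with edgeR 4.0.16 in R 4.3.3 (filterByExpr, TMM, quasi-likelihood test, Benjamini-Hochberg adjustment over all genes tested). SE was obtained from each fold change and its F statistic. Logarithms of CPM used a prior count of 2. DESeq2 1.42.0 (over 10 tumors on the genes past the filter, and without NTC replicate 1 with no filter), RLE and upper quartile scaling, no filter, at least 10 counts in every tumor, robust dispersions, the replicate number as a block, no fold threshold and each tumor left out in turn were alternatives. DESeq2 gave no adjusted p to *Acta2* and *Pdpn* over 10 tumors. Correlations used 100000 permutations (Python 3.11.15, numpy 2.4.6, scipy 1.17.1, pandas 2.3.3), and figures matplotlib 3.10.9. Procedures were tested on simulated data.

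The 10 markers and the other gene lists were chosen with earlier results of these data known. Named genes are the 10 markers, for each list the called genes or, with none called, the 2 with the highest mean CPM, and the 3 genes most like each marker. Genes outside this rule (*Tpm1*, *Cnn2*, *Vcl*, *Tpm2*, *Myh10*, *Cald1*, *Des*, *Synpo2*, *Tgfb1i1*, *Ezr*, *Myocd*, *Myl12a*, *Myl12b*, *Myl6*, *Rgs5*, *Sparc*, *Fbln1*, *Pcolce*, *Slit2*, *Reln*, *Mmrn1*, *Flt4* and *Pdgfc* among them) were named after their values were seen. At most 0.326% of the 50-base stretches of any marker occur in another gene's transcripts (*Acta2*, with other actin genes), so little of the counts can be split with copies. Replicate numbers were not treated as pairs in the main fit.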

Additional observations from a re-analysis of the deposited data

Results flagged for a closer look

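Of 30 groups of 5 tumors examined for a tumor far from the others, 4 held one, each time NTC replicate 1; about 1 in 20 groups is marked by chance. One concerned a fibroblast marker: *Pdpn* was at 5.86 on the log2 CPM scale in NTC replicate 1 and at 3.45 to 3.66 in the other 4 NTC tumors. The same tumor had 11896643 reads on genes against 24145795 to 28682130, 33193 genes with a count against 22192 to 23831, and a TMM factor of 0.628 against 1.02 to 1.11. The other markers highest in this tumor stayed within the limit.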

How the results depend on the processing

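Without a library, the log2 fold changes ran from -0.68 to 1.10 for *Acta2*, -1.03 to 0.53 for *Tagln*, -0.037 to 1.67 for *Pdgfra*, -0.046 to 1.63 for *Fap*, -0.85 to 0.27 for *Pdpn*, -0.41 to 1.44 for *Dcn* and -0.29 to 1.52 for *Lum*, so the sign of these 7 rests on single tumors (NTC replicate 1 for *Acta2*, *Tagln* and *Pdpn*, other tumors for *Pdgfra*, *Fap*, *Dcn* and *Lum*); *Myl9* (-1.19 to -0.91), *Pdgfrb* (0.60 to 1.31) and *Thy1* (0.0047 to 1.36) kept theirs. Correlations between KO and NTC tumors of the same number ran from -0.29 to 0.63. They exceeded the highest with another number for replicates 1 (0.17 beside 0.062) and 4 (0.63 beside 0.56), and not for replicates 2, 3 and 5. Whether the numbers pair the tumors was thus not settled. With the replicate block, *Acta2* was at 0.57, *Tagln* at 0.018, *Pdgfra* at 1.65, *Lum* at 1.52, *Fap* at 1.22, *Dcn* at 1.14, *Thy1* at 0.79 and *Pdpn* at -0.25, no marker was called and 1 gene was called. DESeq2 without NTC replicate 1 gave 1.13, 0.55 and 0.29 for *Acta2*, *Tagln* and *Pdpn*. *Dcn* was at -0.0016 with upper quartile scaling and -0.0034 with at least 10 counts in every tumor, where *Fap* was not tested. edgeR called 0 markers in every alternative, where it called 1 to 17 of all genes, and DESeq2 called 1 marker and, without NTC replicate 1, 2. Genes called numbered 3 over 10 tumors, 96 and 754 with DESeq2, 6 with at least 10 counts, 5 with robust dispersions, 5 with no fold threshold and 1 to 17 with a tumor left out. Other scalings moved the median of all genes by -0.0074 (RLE) and -0.0325 (upper quartile). Without NTC replicate 1, r was -0.18 for *Tagln* and *Myl9* and -0.46 for *Acta2* and *Myl9*. The causes were not tested. Low counts limit *Fap*, *Lum* and *Pdgfra* in NTC replicates 2 (8, 19 and 39 reads) and 4 (22, 28 and 32 reads).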
